A study of Mus musculus with 120 samples.

Results

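Notch signalling genes were followed in single cells of the mouse endolymphatic sac through 10 genes: the receptors Notch1, Notch2 and Notch3, the receptor-modifying sugar transferase Lfng, the ligands Jag1, Jag2 and Dll1, and the target transcription factors Hes1, Hey1 and Hey2. They were chosen by gene symbol, and all 10 were found among the 48371 symbols of the deposited FPKM table. The sac is an outpocketing of the inner ear that takes part in fluid balance, and its epithelium includes ionocytes, cells that carry acid and anions and use the transcription factor FOXI1. The members were described between the study's genotypes, and between epithelial cells with and without Foxi1.

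The tissue was taken at E14.5, a stage of embryonic development, and each cell was sequenced by Smart-seq2, which reads full-length transcripts. The 62 Sox9Y440X/+ cells came from animals with 1 Sox9 allele named for a stop codon at residue 440 and 1 normal allele, and the 58 wild-type cells carried no named allele. No treatment was named for either genotype. The labels name no animal, litter, sex or strain, so each genotype counted as 1 sample, and no difference given here has a replicate check or a p-value. With at least 1000 genes required, 58 Sox9Y440X/+ and 57 wild-type cells were used.

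Notch receptors are activated by ligands on the surface of neighbouring cells, are then cleaved inside the membrane, and the freed intracellular part joins RBPJ in the nucleus to switch on genes of the HES and HEY repressor families. Cells that carry ligand can in this way hold their neighbours back from their own fate, a process called lateral inhibition. In the skin of frogs and zebrafish, Notch signalling is known to limit how many cells become ionocytes.

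Most of what follows on Foxi1-positive cells concerns the ligands Jag1, Dll1 and Dll4. Dll4 is no member of the list of 10 but belongs to a wider list of 61 pathway genes. The 250 bases before the RefSeq start of these ligand genes are shown because all 3 are described in Foxi1-positive cells. The sequences are from RefSeq on GRCm38.p6, written 5′ to 3′ on the gene's own strand: chr2:137116521-137116770 (minus) for Jag1, chr17:15376933-15377182 (minus) for Dll1 and chr2:119325534-119325783 (plus) for Dll4. The gene coordinates given further on are from GENCODE, whose starts can differ: the RefSeq start lies 124 bases inside the GENCODE gene for Jag1, 60 bases outside it for Dll1 and at the same base for Dll4. RefSeq lists 2 start windows for Dll1, and the one farther upstream is shown. Capitals mark the SOX core motif ACAANG on either strand.
Jag1: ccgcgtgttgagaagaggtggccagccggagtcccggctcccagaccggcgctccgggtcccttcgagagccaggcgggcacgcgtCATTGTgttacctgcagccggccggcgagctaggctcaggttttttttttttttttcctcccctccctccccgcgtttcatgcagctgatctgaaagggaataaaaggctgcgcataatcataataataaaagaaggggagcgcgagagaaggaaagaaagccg
Dll1: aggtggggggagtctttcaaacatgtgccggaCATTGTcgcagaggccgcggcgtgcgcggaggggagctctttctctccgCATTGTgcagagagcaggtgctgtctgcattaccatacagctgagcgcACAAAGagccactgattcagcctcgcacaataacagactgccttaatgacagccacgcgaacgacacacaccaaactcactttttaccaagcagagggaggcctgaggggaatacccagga
Dll4: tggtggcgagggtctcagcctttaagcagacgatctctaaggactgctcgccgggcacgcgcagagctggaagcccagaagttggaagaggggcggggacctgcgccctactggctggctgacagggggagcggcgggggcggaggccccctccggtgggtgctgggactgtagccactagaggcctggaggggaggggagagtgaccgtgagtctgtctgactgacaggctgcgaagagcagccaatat
The SOX core was found once in the Jag1 window, 3 times in the Dll1 window and not in the Dll4 window. It was held by 36.3% of 32851 mouse promoter windows of this length. The forkhead motif TGTTTAC, present on either strand in 3.17% of the windows, and the RBPJ motif TGGGAA, present in 21.6%, were in none of the 3. The marked matches overlap no match of the other motifs. Such matches describe letters and do not show binding.

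The 93 epithelium-like cells, 37 Sox9Y440X/+ and 56 wild-type, were taken from clusters made without any Notch gene and named by marker genes. All 14 epithelial markers were detected in 10% or more of each genotype's cells. Of 14 mesenchyme markers, 3 reached that share in Sox9Y440X/+ and 1 in wild-type epithelium-like cells. The median number of genes per cell was 4506 in Sox9Y440X/+ and 3241.5 in wild-type epithelium-like cells. Xist, transcribed in female cells, was detected in 0 of 37 Sox9Y440X/+ and 34 of 56 wild-type epithelium-like cells, so sex, animal and genotype cannot be told apart. Sox9 itself was detected in 36 of 37 and 29 of 56 cells, at mean log2 levels of 3.58 and 1.57 in Sox9Y440X/+ and wild-type cells, and these levels sum both alleles.

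A cell was called Foxi1-positive at a Foxi1 FPKM of at least 1. This gave 7 Sox9Y440X/+ cells with a lowest value of 3.37, a median of 722 and a highest value of 785, and 22 wild-type cells with 7.19, 269 and 1726. The other 30 Sox9Y440X/+ cells were all listed at 0, and the highest of the other 34 wild-type cells stood at 0.423. Foxi1-positive cells had a median of 4520 genes against 4380 in the other Sox9Y440X/+ cells, and 4491.5 against 3046 in wild type. Total FPKM per cell had a median of 455951 and a highest value of 4.44e+06 in Foxi1-positive wild-type cells. The other wild-type cells had 432253 and 560977. In Sox9Y440X/+ the highest totals were 540497 in Foxi1-positive and 533114 in other cells. FPKM values were not rescaled to equal totals unless stated. Marker genes of ionocytes had a median summed log2 level of 48.1 in Foxi1-positive and 5.08 in other Sox9Y440X/+ cells, and of 40.5 and 4.40 in wild type. These sums include Foxi1. Some Foxi1-positive cells lay outside the cluster called ionocyte-like below. In the 2 such Sox9Y440X/+ cells the sums were 2.13 and 5.44, all of it Foxi1. In the 14 such wild-type cells the lowest sum was 5.99 and the median 13.6. Mesenchyme marker sums had medians of 5.44 and 1.88 in Foxi1-positive and other Sox9Y440X/+ cells, and of 7.54 and 0 in wild type. Few of the 14 markers made up these sums. In Foxi1-positive and other cells, 3 and 3 reached 10% of cells in Sox9Y440X/+, and 1 and 0 in wild type. The part of these markers in the results, and that of gene number and total FPKM, was not tested beyond the values given below.

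**Figure D1:**
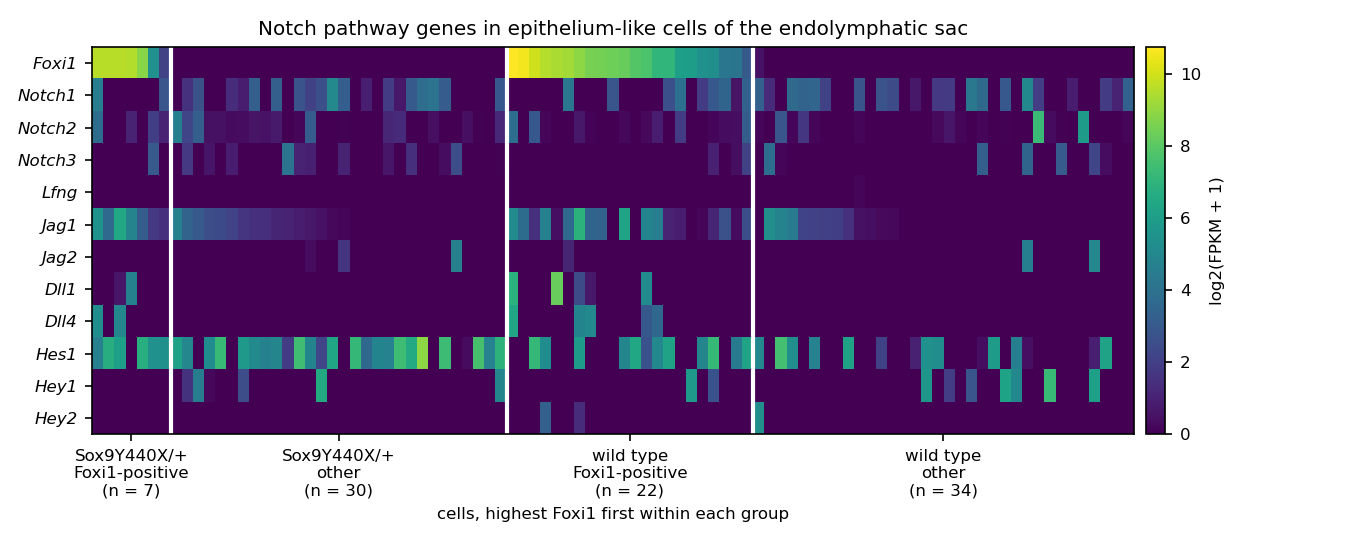
Levels of Foxi1, the 10 Notch genes and Dll4 in each epithelium-like cell, with colour giving log2(FPKM + 1), each column 1 cell and columns ordered by Foxi1 within the 4 groups. Dll1 and Dll4 are dark in all 30 other Sox9Y440X/+ and all 34 other wild-type cells, while Hes1 is bright in most Sox9Y440X/+ cells.

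Jag1, a membrane ligand encoded on the minus strand of chromosome 2 at 137081456-137116644 (ENSMUSG00000027276.7, GRCm38), was higher in Foxi1-positive cells of both genotypes. In Sox9Y440X/+ cells the 7 Foxi1-positive values were 1.79, 2.47, 8.10, 11.8, 27.3, 43.7 and 86.6 FPKM, against a lowest value of 0, a median of 0.129 and a highest value of 25.2 in the 30 others. All Foxi1-positive Sox9Y440X/+ cells thus had Jag1, but the lower 4 lay within the range of the other cells. In wild type the 22 Foxi1-positive cells had a lowest value of 0, a median of 5.10 and a highest value of 119 FPKM, against 0, 0 and 39.2 in the 34 others.

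A gene was counted as detected in a cell at an FPKM of at least 1. Jag1 was detected in 7 of 7 Foxi1-positive Sox9Y440X/+ cells (100%, exact 95% interval 59% to 100%) and in 11 of 30 others (36.7%, 19.9% to 56.1%). In wild type it was detected in 15 of 22 Foxi1-positive cells (68.2%, 45.1% to 86.1%) and in 8 of 34 others (23.5%, 10.7% to 41.2%). The intervals do not overlap within either genotype, but they cover counting error only and not differences between animals. The share of all genes with intervals apart is not given, so this describes Jag1 alone.

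Mean log2(FPKM + 1) of Jag1 was 3.84 in Foxi1-positive and 0.92 in other Sox9Y440X/+ cells, a difference of 2.93. In wild type the means were 2.61 and 0.76, a difference of 1.86. Among cells with 2500 to 5500 genes the difference was 3.07 in Sox9Y440X/+ and 1.97 in wild type. Gene numbers were not matched there. Their medians in Foxi1-positive and other cells were 4384.5 and 4139 in Sox9Y440X/+, and 4192 and 3188 in wild type. With a pseudocount of 10 it was 1.23 and 0.71, so the wild-type value then stood below the 1 log2 unit used as the threshold for calling a difference.

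Jag1 was detected in all cells of the ionocyte-like cluster, which was formed without any Notch gene and had 12 of 15 ionocyte markers in at least 50% of its cells. The 5 Sox9Y440X/+ cells of that cluster had 8.10 to 86.6 FPKM with a median of 27.3, and its 8 wild-type cells had 10.1 to 119 FPKM with a median of 26.8. The genotypes overlapped over most of this range. The 14 wild-type Foxi1-positive cells outside the cluster had Jag1 in 7 cells, with a highest value of 11.8 FPKM.

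Dll1, a Delta-type ligand on the minus strand of chromosome 17 at 15367354-15376872, was detected in a few Foxi1-positive cells and in no other epithelium-like cell measured. The values of at least 1 FPKM were 25.4 in 1 of 7 Foxi1-positive Sox9Y440X/+ cells, and 4.42, 35.2, 117 and 303 in 4 of 22 Foxi1-positive wild-type cells. It was listed at 0 in all 30 other Sox9Y440X/+ cells, which allows a share of up to 10%, and in all 34 other wild-type cells, which allows up to 8.82%. It was likewise listed at 0 in the 21 mesenchyme-like Sox9Y440X/+ cells.

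Dll4, the Delta-type ligand best known from blood vessels, on the plus strand of chromosome 2 at 119325784-119335962, was likewise found in Foxi1-positive cells. It stood at 30.1 and 38 FPKM in 2 of 7 Foxi1-positive Sox9Y440X/+ cells and at 6.75, 11.4, 27.5, 32.1 and 81.6 FPKM in 5 of 22 Foxi1-positive wild-type cells, and was listed at 0 in all other epithelium-like cells of both genotypes. All of these Dll4 cells lay in the ionocyte-like cluster, as did the Dll1 cells except the wild-type cell at 303 FPKM. Of 11 endothelial markers, 4 were detected in at least 10% of the 7 Foxi1-positive Sox9Y440X/+ cells, where 1 cell is enough. In the Foxi1-positive wild-type cells 0 reached that share. Within the ionocyte-like cluster, which holds all Dll4 cells, 1 was detected in any Sox9Y440X/+ cell and 0 in any wild-type cell.

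The Delta-type RNAs were partly in the same cells. In Sox9Y440X/+ 1 cell had Dll1, 2 had Dll4 and 0 had both. In wild type 4 cells had Dll1, 5 had Dll4 and 3 had both. Jag1 was detected in 2 of 2 Sox9Y440X/+ and 5 of 5 wild-type Dll4 cells, and in 1 of 1 and 3 of 4 Dll1 cells.

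Of the 7521 genes detected in at least 4 Foxi1-positive wild-type cells, 154 (2.05%) were detected in 0 of the other wild-type cells. Of all 7521, 40 (0.532%) were also detected in at least 1 Foxi1-positive and 0 other Sox9Y440X/+ cells, and Dll1 and Dll4 were among them. This criterion was chosen after the values of Dll1 and Dll4 were seen, so it describes them and does not support the pattern. With the other cells at 0, no fold is given, and the Dll1 difference in wild type, 1.07 log2 units, became 0.63 at 2500 to 5500 genes and 0.73 without the highest cell of each group. It also stood below 1 with a pseudocount of 10 (0.52), after scaling to the same total (0.99), over all 120 cells (0.80) and outside cluster 8 (0.80), which holds the cell at 303 FPKM.

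**Figure D2:**
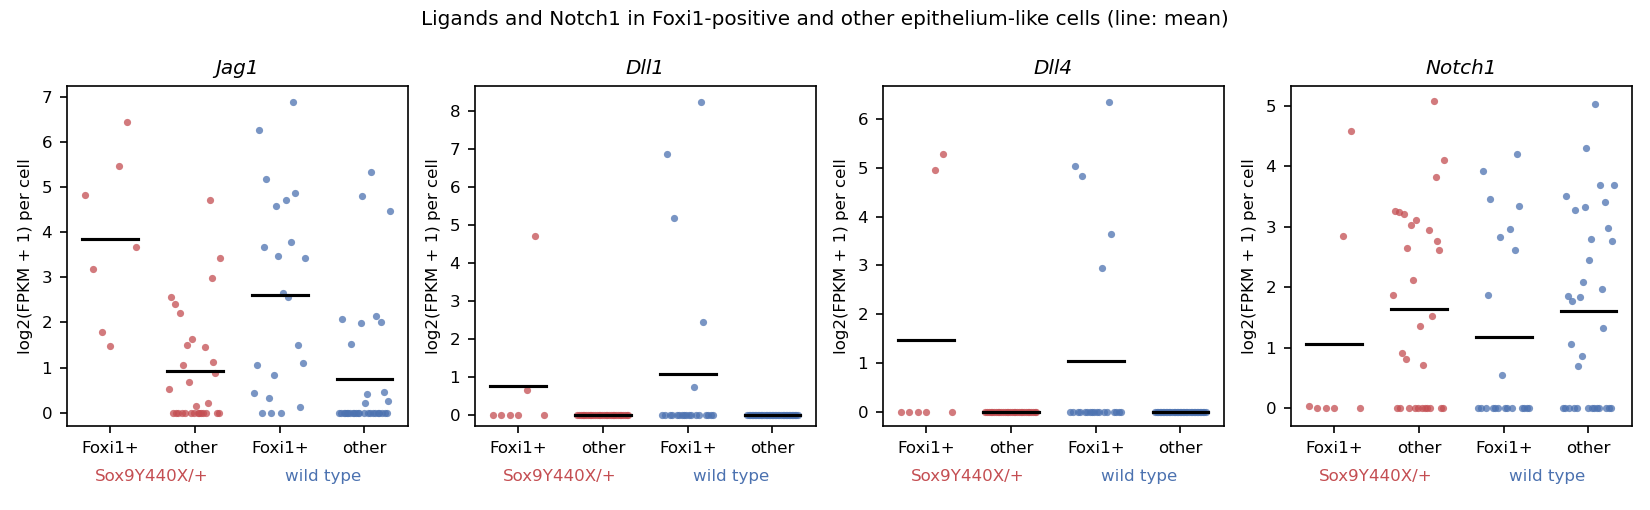
Jag1, Dll1, Dll4 and Notch1 in Foxi1-positive (Foxi1+) and other epithelium-like cells, with each point 1 cell, the line the mean, and the vertical axis log2(FPKM + 1). Dll1 and Dll4 points above 0 lie only in the Foxi1-positive columns, Jag1 means are 3.84 and 0.92 in Sox9Y440X/+ and 2.61 and 0.76 in wild type, and Notch1 points above 0 occur in all 4 columns.

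Jag2, the other Jagged ligand, was rare. It was detected in 0 of 7 Foxi1-positive and 2 of 30 other Sox9Y440X/+ cells, at 2.09 and 24.7 FPKM. In wild type it was detected in 1 of 22 Foxi1-positive cells, at 1.17 FPKM, and in 2 of 34 others, at 23.7 and 30.3 FPKM. These counts are too small to order the groups.

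Notch1, a receptor encoded on the minus strand of chromosome 2 at 26457903-26516663, was detected in a lower share of the Foxi1-positive cells measured, with wide and overlapping intervals. It was detected in 2 of 7 Foxi1-positive Sox9Y440X/+ cells (28.6%, 3.67% to 71.0%) and 16 of 30 others (53.3%, 34.3% to 71.7%), and in 8 of 22 Foxi1-positive wild-type cells (36.4%, 17.2% to 59.3%) and 19 of 34 others (55.9%, 37.9% to 72.8%). The mean log2 difference was -0.57 in Sox9Y440X/+ and -0.44 in wild type, below the threshold in size. Without the highest cell of each group the Sox9Y440X/+ value was -1.04, and with a pseudocount of 0.1 it was -1.50, both past the threshold. The counts therefore do not separate the groups at this number of cells.

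In the ionocyte-like cluster Notch1 was detected in 1 of 5 Sox9Y440X/+ cells, at 23 FPKM. It was listed at 0 in all 8 wild-type cells of that cluster, a count that allows a share of up to 37.5%. The 14 wild-type Foxi1-positive cells outside the cluster had it in 8, with a highest value of 17.5 FPKM. Compared with all other epithelium-like cells of the genotype, the cluster's difference was -0.71 in Sox9Y440X/+ and -1.68 in wild type. The share of all genes lower by at least 1 log2 unit in the cluster is not given. These values therefore describe Notch1 in few cells and show nothing particular to it.

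A related count was made with Slc26a4, the anion exchanger pendrin of mature sac ionocytes. It was detected in 2 of 37 Sox9Y440X/+ and 12 of 56 wild-type epithelium-like cells. Notch1 and Slc26a4 were found together in 1 Sox9Y440X/+ and 0 wild-type cells, where Notch1 was detected in 18 of 37 and 27 of 56 cells. The 12 wild-type Slc26a4 cells include all 8 wild-type cells of the ionocyte-like cluster. The wild-type count therefore largely repeats the one given for that cluster. Jag1 was detected in 2 of 2 Sox9Y440X/+ and 10 of 12 wild-type Slc26a4 cells, while Slc26a4 was detected in 0 of 1 Sox9Y440X/+ and 4 of 4 wild-type Dll1 cells, and in 1 of 2 Sox9Y440X/+ and 5 of 5 wild-type Dll4 cells.

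Notch2, a receptor present in many tissues, was detected in 4 of 7 Foxi1-positive and 7 of 30 other Sox9Y440X/+ cells, and in 4 of 22 Foxi1-positive and 4 of 34 other wild-type cells. Its highest values, 60.6 and 162 FPKM, were in 2 of the other wild-type cells, while the highest in the Foxi1-positive wild-type cells was 13.6. The differences were 0.41 and 0.09 log2 units in Sox9Y440X/+ and wild type.

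Notch3, a receptor known from vessel wall cells, was detected in 1 of 7 Foxi1-positive and 6 of 30 other Sox9Y440X/+ cells, and in 2 of 22 Foxi1-positive and 5 of 34 other wild-type cells, with no value above 16.1 FPKM. Lfng, a sugar transferase that tunes which ligands a receptor answers, reached an FPKM of 1 in 0 of 37 Sox9Y440X/+ and 0 of 56 wild-type cells. These counts allow shares of up to 8.11% and 5.36%, and a single wild-type cell had 0.151 FPKM.

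Cells with ligand and no receptor made up a larger share of the Foxi1-positive cells measured, and cells with receptor and no ligand a larger share of the others, a difference that was not tested. Counting Notch1, Notch2 and Notch3 as receptors and Jag1, Jag2, Dll1 and Dll4 as ligands, 3 of 7 Foxi1-positive Sox9Y440X/+ cells had a ligand and no receptor, and 0 had a receptor and no ligand. Among the other Sox9Y440X/+ cells, 4 of 30 had ligand alone and 11 had receptor alone. In wild type, 9 of 22 Foxi1-positive cells had ligand alone and 3 receptor alone, against 2 and 15 of 34 others. In the ionocyte-like cluster ligand alone was found in 3 of 5 Sox9Y440X/+ and 7 of 8 wild-type cells, and receptor alone in 0 of either. Jag1 was detected in all cells of that cluster and in all 7 Foxi1-positive Sox9Y440X/+ cells. The counts of 0 for receptor alone were therefore fixed by Jag1. The split restates the ligand and receptor counts given above and is no separate result. At this detection rate a gene not seen may still be transcribed.

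Across the epithelium-like cells Jag1 and Notch1 were seen together in 7 of 37 Sox9Y440X/+ cells, where each was detected in 18, and in 10 of 56 wild-type cells, where they were detected in 23 and 27. The median cell had 2 of the 10 members, and the highest had 6 in Sox9Y440X/+ and 5 in wild type.

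Hes1, a repressor and frequent Notch target, was detected in most Sox9Y440X/+ cells with or without Foxi1. In Sox9Y440X/+ it was detected in 6 of 7 Foxi1-positive and 24 of 30 other cells, and the mean log2 levels were 5.01 and 4.58. In wild type it was detected in 12 of 22 Foxi1-positive and 11 of 34 other cells, with mean log2 levels of 3.02 and 1.80, a difference of 1.22. That value was 0.53 among wild-type cells without Xist, 0.61 with a pseudocount of 10 and 0.94 at a Foxi1 limit of 10 FPKM, so it does not hold up as a called difference.

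The HEY repressors were sparse. Hey1 was detected in 0 of 7 Foxi1-positive Sox9Y440X/+ cells and in 5 of 30 others, at 1.98 to 91.5 FPKM. In wild type it was detected in 2 of 22 Foxi1-positive cells, at 5.52 and 55.2 FPKM, and in 7 of 34 others, at 2.83 to 155 FPKM. None of the 5 Sox9Y440X/+ and 8 wild-type cells of the ionocyte-like cluster had Hey1 or Notch3, which allows shares of up to 60% and 37.5%. Hey2 was detected in 0 of 37 Sox9Y440X/+ cells, which allows up to 8.11%, and in 3 wild-type cells, of which 2 were Foxi1-positive at 1.58 and 8.71 FPKM and 1 was not, at 39.1 FPKM.

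The members' calls were set beside those over all genes. In Sox9Y440X/+ 7 members passed the filter, which asked for detection in 10% or more of either group, and 1, Jag1, was higher by at least 1 log2 unit in Foxi1-positive cells, where 17.1% of 11992 genes were. In wild type 7 passed and 3, Jag1, Dll1 and Hes1, were higher, where 16% of 9585 genes were. No member was lower by that much in either genotype, against 7.74% and 2.41% of genes. The median difference over the members that passed was 0.41 in Sox9Y440X/+ and 0.09 in wild type, beside 0.16 and 0.29 over all genes tested. Dll1 passed through its Foxi1-positive cells alone, so with so few members these counts describe them and show nothing particular to them.

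Between the genotypes 1 member stood apart. This was Hes1, on the plus strand of chromosome 16 at 30064384-30067796 (ENSMUSG00000022528.8 in GENCODE, ENSMUSG00000022528.7 in the deposited values). Hes1 had a lowest value of 0, a median of 34.5 and a highest value of 487 FPKM in the 37 Sox9Y440X/+ epithelium-like cells. The 56 wild-type cells had 0, 0 and 185 FPKM. The ranges overlap, and the groups differ mainly in how many cells had the gene at all. Hes1 was detected in 30 of 37 Sox9Y440X/+ cells (81.1%, 64.8% to 92.0%) and in 23 of 56 wild-type cells (41.1%, 28.1% to 55%). Among the cells with Hes1 the median was 48.1 FPKM in Sox9Y440X/+ and 38.1 FPKM in wild type.

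The mean log2 level of Hes1 was 4.66 in Sox9Y440X/+ and 2.28 in wild-type epithelium-like cells, a difference of 2.38. Of the 6 members that passed the filter, Hes1 was the 1 higher by at least 1 log2 unit, where 8.02% of 10342 genes were, and 0 were lower, where 1.38% of genes were. The median over these 6 was 0.12, beside 0.22 over all genes.

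The Hes1 difference was positive in each set that held at least 5 cells of both genotypes. It was 1.995 among Foxi1-positive cells, with detection in 6 of 7 Sox9Y440X/+ and 12 of 22 wild-type cells, and 2.78 among the others, with 24 of 30 and 11 of 34. Within the ionocyte-like cluster it was 1.87 (4 of 5 and 5 of 8 cells), and within the epithelium-like clusters 3 and 6, which hold most of the remaining shared cells, it was 2.20 (10 of 11 and 6 of 11) and 1.69 (4 of 6 and 9 of 25). Among cells with 2500 to 5500 genes it was 2.20, and among cells without Xist 2.18. The epithelium-like clusters 2 and 7 held 1 wild-type cell each, and cluster 8 held none from Sox9Y440X/+. The mean log2 level was 3.71 in the 10 Sox9Y440X/+ cells of cluster 2 and 6.19 in its wild-type cell, and 6.31 in the 5 Sox9Y440X/+ cells of cluster 7 and 0.42 in its wild-type cell.

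**Figure D3:**
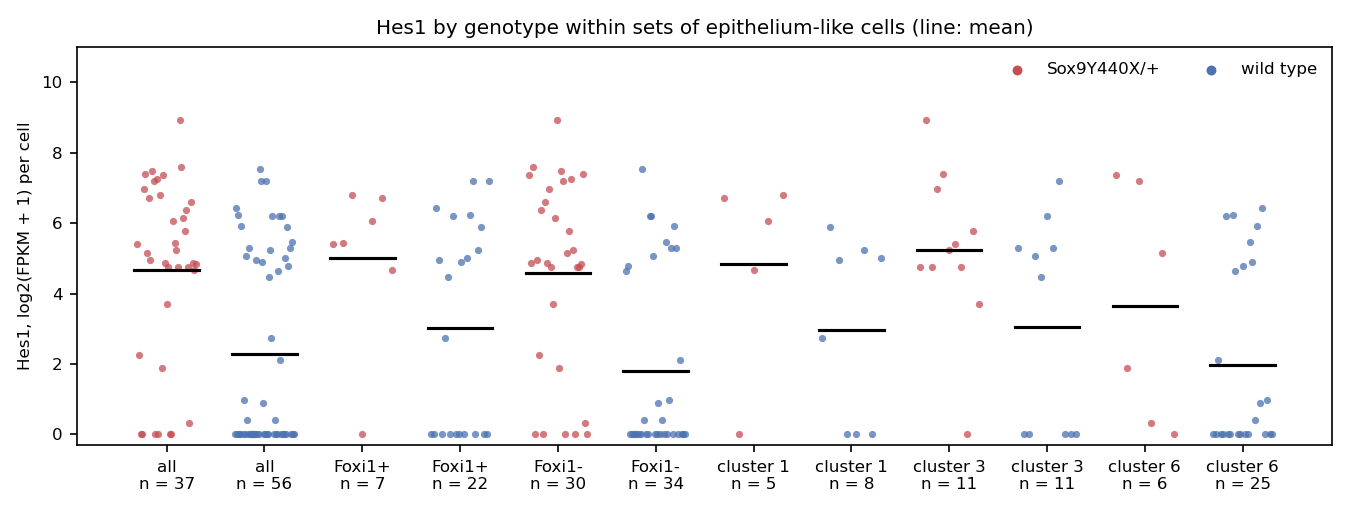
Hes1 in Sox9Y440X/+ and wild-type epithelium-like cells, for all cells, cells with and without Foxi1, and clusters 1 (ionocyte-like), 3 and 6, with each point 1 cell, the line the mean and the vertical axis log2(FPKM + 1). The Sox9Y440X/+ mean is above the wild-type mean in each pair, by 1.69 to 2.78, and many wild-type cells lie at 0.

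Genes induced by cell dissociation moved in the same direction. The summed log2 level of 18 immediate-early and heat-shock genes, all detected in at least 10% of cells of both genotypes, had a lowest value of 17.9, a median of 89.8 and a highest value of 111 in Sox9Y440X/+, against 12.5, 76.3 and 117 in wild-type epithelium-like cells. Across cells the Pearson correlation of this sum with Hes1 was 0.43 in the 37 Sox9Y440X/+ and 0.06 in the 56 wild-type cells, which share a genotype sample and are not replicates. Correlation of Hes1 with the number of genes was 0.02 and 0.28 in Sox9Y440X/+ and wild type. The part of dissociation in the Hes1 difference was not tested.

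The remaining members differed little between genotypes over all epithelium-like cells. Notch1 was detected in 18 of 37 Sox9Y440X/+ cells (48.6%, 31.9% to 65.6%) and 27 of 56 wild-type cells (48.2%, 34.7% to 62%), a mean log2 difference of 0.09. Jag1 was detected in 18 of 37 and 23 of 56 cells, a difference of -0.02 that was 0.18 with a pseudocount of 0.1. Notch2 was detected in 11 and 8 of these cells, a difference of 0.17, while its mean FPKM ran the other way, at 1.90 in Sox9Y440X/+ and 4.75 in wild type, which holds the cells at 60.6 and 162. Notch3 was detected in 7 Sox9Y440X/+ and 7 wild-type cells, a difference of 0.14. Hey1 was detected in 5 and 9 cells, a difference of -0.23. With 1 sample per genotype, such small differences do not show that the levels are alike. The pooled Jag1 value also mixes unlike sets, as Foxi1-positive cells were 7 of 37 in Sox9Y440X/+ and 22 of 56 in wild type. The Jag1 difference was 1.23 among Foxi1-positive cells and 0.16 among the others. Within clusters 1 (ionocyte-like), 3 and 6 it was -0.25, -0.82 and -0.10.

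By share of cells the order in Sox9Y440X/+ was Hes1, then Notch1 and Jag1 level, Notch2, Notch3, Hey1, Jag2 and Dll1. In wild type it was Notch1, then Hes1 and Jag1 level, Hey1, Notch2, Notch3, Dll1, and Jag2 and Hey2 level. Neighbours in these orders had overlapping intervals throughout.

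**Figure D4:**
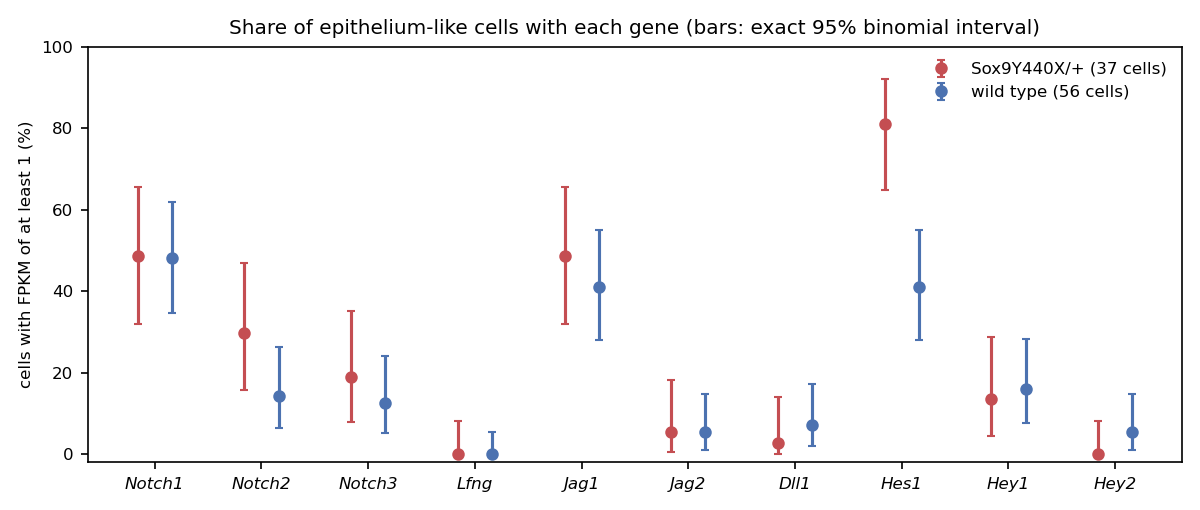
Share of epithelium-like cells with an FPKM of at least 1 for each of the 10 Notch genes, in percent, for 37 Sox9Y440X/+ and 56 wild-type cells, with bars giving the exact 95% binomial interval or, for a count of 0, the upper limit it allows. The Hes1 intervals, 64.8% to 92.0% and 28.1% to 55%, do not overlap, and those of the other members do. The share of all genes with intervals apart is not given.

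Some members differed by at least 1 log2 unit within a subset chosen after its values were seen. In cluster 3 Notch1 was detected in 4 of 11 Sox9Y440X/+ and 10 of 11 wild-type cells, a difference of -1.63. In cluster 6 Hey1 was detected in 0 of 6 Sox9Y440X/+ and 6 of 25 wild-type cells, a difference of -1.27. Among Foxi1-positive cells Jag1 was higher in Sox9Y440X/+ by 1.23, but within the ionocyte-like cluster the difference was -0.25. Of the Foxi1-positive cells, 5 of 7 Sox9Y440X/+ and 8 of 22 wild-type cells belong to that cluster.

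Mesenchyme-like cells, connective tissue cells of the surroundings named from collagens and other mesenchyme markers, were 21 in Sox9Y440X/+ and 1 in wild type, so no genotype comparison was possible. In the Sox9Y440X/+ cells Hes1 was detected in 14 of 21, with a median of 17 and a highest value of 253 FPKM. Notch2 was detected in 12 of 21 (57.1%, 34% to 78.2%), against 11 of 37 in the Sox9Y440X/+ epithelium-like cells (29.7%, 15.9% to 47%). Notch1 and Jag1 were each found in 2 of 21, and Dll1, Jag2, Hey1 and Lfng in 0. Notch3 was found in 4 and Hey2 in 1, at 33 FPKM. Markers of vessel cells were seen too: 10 of 11 endothelial and 6 of 6 pericyte markers were detected in at least 1 of its Sox9Y440X/+ cells. Only 1 endothelial and 3 pericyte markers reached 10% of these cells. The summed log2 level of the endothelial markers had a median of 0 and a highest value of 73.6, so they do not mark the class as a whole. Of 10 chondrocyte markers, 7 reached 10% of the cells, with a median sum of 28.4.

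The wider list of 61 genes, from ligand-presenting enzymes to receptor proteases, nuclear partners and further targets, was examined in the same comparisons. Between the genotypes 43 passed the filter, 4 were higher in Sox9Y440X/+ by at least 1 log2 unit and 0 lower, beside 8.02% and 1.38% of all genes, so the share higher is near the background. Above 0 lay 30 of the 43, and 69.9% of all genes tested. The median difference was 0.22, equal at 2 decimals to that of all genes. The 4 were Skp1a (7.16 against 5.36), Cdkn1a (7.68 against 6.48), Cul1 (3.64 against 2.51) and Mib1 (2.58 against 1.47), as mean log2 levels in Sox9Y440X/+ and wild type. SKP1 and CUL1 are subunits of the ubiquitin ligase that degrades the freed Notch fragment among many other proteins, CDKN1A is a cell cycle inhibitor, and MIB1 lets ligands signal.

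Just under the threshold stood the nuclear partner Rbpj, detected in 13 of 37 Sox9Y440X/+ and 8 of 56 wild-type cells with a difference of 0.81. Rfng, a relative of Lfng, was detected in 11 and 3 of these cells with a difference of 0.79. Hes5, a frequent Notch target, was listed at 0 in all cells of both genotypes, and Heyl was detected in 1 Sox9Y440X/+ and 1 wild-type cell.

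Most genes of receptor cleavage had positive differences in the Foxi1 comparison. Of 10 such genes, 9 passed in Sox9Y440X/+, with 8 above 0, a median of 0.75 beside 0.16 over all genes, and 4 higher by at least 1 log2 unit, where 17.1% of all genes were. Among the 4 were the sheddases Adam10 and Adam17 (2.32 and 2.01) and the γ-secretase subunit Ncstn (1.12). In wild type all 10 passed, with 9 above 0, a median of 0.60 beside 0.29 over all genes, and 1 past the threshold, where 16% of all genes were. This was Aph1a, another γ-secretase subunit. Aph1a was detected in 15 of 22 Foxi1-positive and 4 of 34 other wild-type cells, a difference of 2.10. Furin, Aph1b and Aph1c in wild type, and Aph1c in Sox9Y440X/+, passed the filter through their Foxi1-positive cells alone. Their positive differences are therefore no support for a pattern. Over all genes tested the share above 0 was 57.7% in Sox9Y440X/+ and 68.8% in wild type, and whether the cleavage genes stand apart was not tested.

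Over the whole wider list 8 of 44 genes were higher and 4 lower in Foxi1-positive Sox9Y440X/+ cells, beside 17.1% and 7.74% of all genes, with a median of 0.10 beside 0.16. In wild type 5 of 41 were higher and 0 lower, beside 16% and 2.41% of all genes, with a median of 0.33 beside 0.29. The shares higher are near those of all genes. Dll4 is among the higher genes in both genotypes and passed the filter through its Foxi1-positive cells alone. In wild type Maml3 and Neurl1a, among others, passed in the same way. These counts describe the listed genes and show nothing particular to them. The lower genes in Sox9Y440X/+ included the nuclear factors Hdac1, a histone deacetylase detected in 2 of 7 Foxi1-positive and 21 of 30 other cells (difference -3.18), and Snw1, a splicing and transcription cofactor detected in 0 of 7 and 16 of 30 cells (-2.70). Cdkn1a was higher in Foxi1-positive cells of both genotypes, by 2.67 in Sox9Y440X/+ and 3.23 in wild type, and was detected in 7 of 7 and 22 of 22 of them.

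The further genes named by size were Cul1 in Sox9Y440X/+ (2.93, detected in 7 of 7 Foxi1-positive and 17 of 30 other cells), and in wild type the corepressor Ctbp1 (1.30), the recycling GTPase Rab11a (1.17), Dll4 (1.04) and the corepressor Tle1 (-0.93). With 7 Foxi1-positive Sox9Y440X/+ cells, each mean there leans on few cells.

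**Figure D5:**
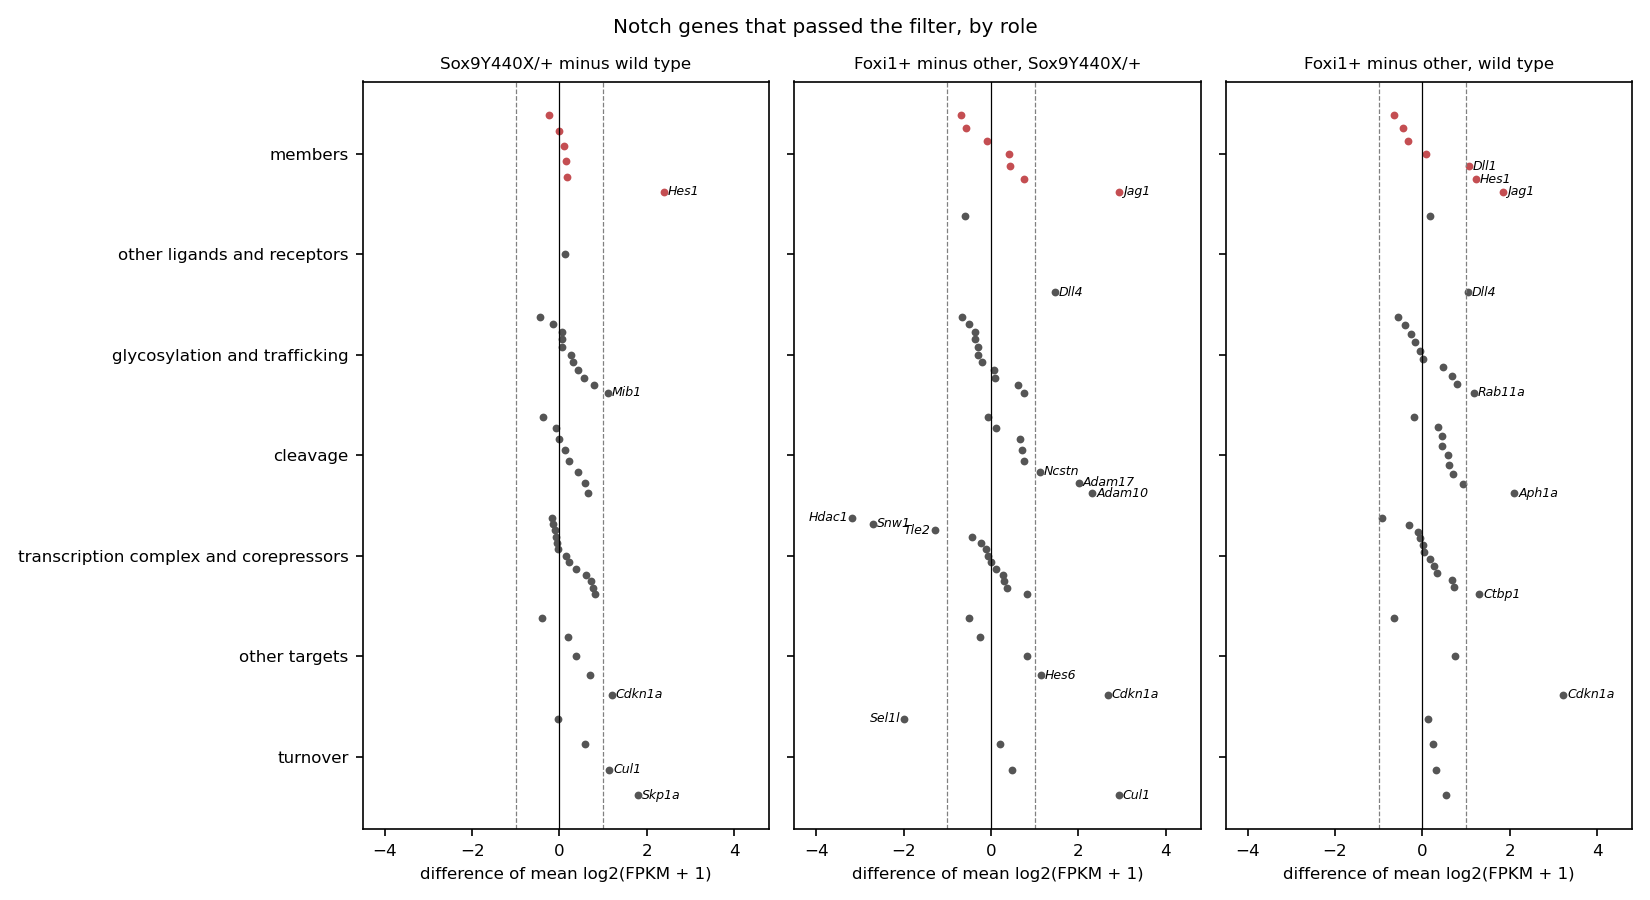
Differences of mean log2(FPKM + 1) for the members (red) and the wider Notch list (grey) by role, in Sox9Y440X/+ minus wild type, and in Foxi1-positive (Foxi1+) minus other cells of Sox9Y440X/+ and of wild type, with each point 1 gene that passed the filter, 1 cleavage gene left out, and dashed lines at 1 log2 unit. Hes1 is farthest right in the genotype panel at 2.38, Jag1 at 2.93 is among the highest in the Sox9Y440X/+ panel, and cleavage genes lie mostly right of 0 in both Foxi1 panels.

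The genes whose levels varied most like those of a member were listed for the 3 members found in at least 25% of the 93 epithelium-like cells, among 4199 genes detected as often. For Jag1 they were Tmem117 (Pearson correlation 0.60), Foxi1 (0.58) and Hebp2 (0.57). Within genotypes the correlation of Jag1 with Foxi1 was 0.73 in Sox9Y440X/+ and 0.53 in wild type, and among the 22 Foxi1-positive wild-type cells it was 0.41. For Notch1 they were Nr4a1 (0.42), Nebl (0.41) and Dusp1 (0.41), of which Nr4a1 and Dusp1 belong to the immediate-early list. For Hes1 they were Hbegf, an EGF receptor ligand (0.45), Glud1 (0.42) and Flna (0.41). These values describe cells that share their samples and whose gene number varies, and they carry no p-value. The lists pool both genotypes, between which Hes1 differs by 2.38 log2 units, and the part of genotype in the Hes1 correlations was not tested.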

How the data were processed

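Smart-seq2 libraries from 120 single cells of the endolymphatic sac, 62 Sox9Y440X/+ and 58 wild type, were read from 1 table in which the authors deposited FPKM values (fragments scaled for transcript length and for all fragments of the cell). The build mm10 and the tools Cufflinks, HTSeq, HISAT2 and SAMtools 0.1.18 are named, per the submitters' processing notes. The sources used here give neither annotation nor settings. FPKM holds no counts, so depth is unknown; exact zeros can be failed estimates.

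Symbols listed more than once were summed. Cells with at least 1000 genes per label were clustered (Ward linkage, 15 principal components of 1500 variable genes, 8 clusters) without the Notch list and named from 11 marker lists. Doublets were not called. Detection meant an FPKM of at least 1. Differences are of mean log2(FPKM + 1), a scale that understates the change of low genes, and a difference was called at 1 log2 unit in size, for genes that reached detection in 10% of either group. Cells are not replicates, so no test was run. Intervals are exact Clopper-Pearson 95% intervals and a count of 0 allows a share of 3 cells in the total; these cover counting error only. The difference script was tested on simulated data.

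The members and lists were chosen with earlier results of these data known. All members were named, with up to 6 wider-list genes of largest difference per comparison and the 3 most alike genes per frequent member. A gene that this rule selects is not reported here. Cleavage genes other than these, Hes5, Heyl and the splits by cluster and by Foxi1 between genotypes were picked with their values in view. The alternatives were pseudocounts of 0.1 and 10, ratios of mean FPKM, scaling to equal totals, all 120 cells, 2500 to 5500 genes, cells without Xist, other class rules, other Foxi1 limits and detection limits, and leaving out the highest cell. Coordinates are from GENCODE M21 on GRCm38 by gene identifier and promoter windows from RefSeq on GRCm38.p6. Python 3.11.15, pandas 2.3.3 and scipy 1.17.1 were used.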

Additional observations from a re-analysis of the deposited data

How the results depend on the processing

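Across 66 recomputations of the 5 called differences, 51 stayed within 1.5 times the reported value, 15 moved further and 0 changed sign. Hes1 between genotypes ranged from 1.22 to 3.59 log2 units and Jag1 in Foxi1-positive Sox9Y440X/+ cells from 1.23 to 4.70, both above the threshold under every setting run. The count of called members between genotypes was 1 and became 2 by the log2 ratio of mean FPKM, with Notch2 lower, and 2 within each of the Foxi1-positive cells, cluster 3 and cluster 6. In the Sox9Y440X/+ Foxi1 comparison 1 became 4 with a pseudocount of 0.1, 3 by the ratio of means, 2 for the ionocyte-like cluster and 2 without the highest cell of each group, where Notch1 joined Jag1. In the wild-type Foxi1 comparison 3 became 5 with a pseudocount of 0.1, 5 by the ratio of means and 0 with a pseudocount of 10; no test was made, so no unadjusted p exists for that 0. Pseudocounts act directly on low values, as most members' are. The cause of the other changes was not tested. The share of all genes called at each of these settings is not given, so these counts show nothing particular to the members. Of 40 shares recomputed at other detection limits, 32 stayed within their interval and 8 moved. No paired analysis was possible because cell numbers only name cells and no test was made. Unknown depth limits all statements on genes listed at 0.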
